A study of Mus musculus with 12 samples.

Results

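The immunoproteasome genes were described beside constitutive genes, those of the replaced catalytic subunits (Psmb5, Psmb6, Psmb7) and of other activators (Psme3, Psme4). The cells were B16.F10, a melanoma line from C57BL/6 mice, after knockdown of the arginine methyltransferase gene Prmt7 and with or without interferon gamma (IFN-γ). The 10 genes were chosen by symbol, as the row with that name in a table of 55536 rows. They are the inducible Psmb8, Psmb9, Psmb10, Psme1 and Psme2 and the constitutive Psmb5, Psmb6, Psmb7, Psme3 and Psme4. Each symbol stood on a single row, and all 10 were among the 14407 genes tested.

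The proteasome is a barrel of stacked rings that cuts ubiquitin-tagged proteins into peptides. Its constitutive form carries the catalytic subunits encoded by Psmb5 (β5, chymotrypsin-like activity), Psmb6 (β1, caspase-like activity) and Psmb7 (β2, trypsin-like activity). In cells exposed to IFN-γ, newly built particles take up LMP7 (Psmb8), LMP2 (Psmb9) and MECL-1 (Psmb10) in their place, and the peptides made suit MHC class I molecules better. Psme1 and Psme2 encode PA28α and PA28β, which together form a cap induced by IFN-γ. Psme3 encodes the nuclear PA28γ, and Psme4 encodes the activator PA200.

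Poly(A) RNA was sequenced in 12 libraries, 3 in each of 4 groups: cells given a small interfering RNA (siRNA) against luciferase (siLuc, the control) without and with IFN-γ, and cells given an siRNA against Prmt7 (siPRMT7) without and with IFN-γ. Every group was transfected for 72 h, and IFN-γ was present for the last 24 h. The labels give the amount of IFN-γ in units that differ, and so the dose is not reported. They do not say that the libraries of a group came from separate cultures, so p-values measure the spread between libraries, which may be technical. All groups are a single tumour line. Prmt7, the check of the knockdown, had regularized log (rlog) values between 10.16 and 10.34 in the 6 siLuc libraries and between 6.08 and 6.41 in the 6 siPRMT7 libraries.

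An rlog value is a log2 read count, scaled for library size by the authors and drawn toward the gene's mean over all libraries where reads are few. The table's header gives library totals from 18.971 M to 30.978 M reads. A difference below is that of 2 group means in log2 units, and its standard error (SE) comes from limma's moderated variance over all 12 libraries. A gene was called at a Benjamini-Hochberg adjusted p under 0.05 over all genes tested. All 8 melanocyte lineage markers were tested, and each lay at 12.10 or above in every library. They were not constant. With IFN-γ 2 were called higher and 4 lower in siLuc cells (28.0% and 32.7% of all genes). In siPRMT7 cells 1 was higher and 7 were lower (28.0% and 28.6% of all genes). Knockdown gave 2 higher and 5 lower without IFN-γ (36.3% and 38.9% of all genes). With IFN-γ it gave 1 higher and 6 lower (35.9% and 38.7% of all genes). Tyr changed most with IFN-γ (-0.99 and -1.34). Under knockdown without and with IFN-γ, Pmel was at -0.87 and -0.72 while Mc1r was at 0.93 and 0.19. The part of these lineage genes in the results was not tested. Of 7 fibroblast, endothelial and keratinocyte markers 3 were tested. Of these, Col1a2 fell with IFN-γ by 1.61 in siLuc and by 0.62 in siPRMT7 cells. Under knockdown it was higher by 0.63 without and by 1.62 with IFN-γ. Of the 3, 2 were called lower under knockdown without IFN-γ and 1 with it (38.9% and 38.7% of all genes). Of 11 leukocyte markers, which matter here because leukocytes carry immunoproteasomes without induction, Cd68 and Csf1r alone passed the filter on low values. Ptprc lay below 0 on the rlog scale and Adgre1 and Cd3e were listed at 0 in every library. In this bulk RNA, fewer cells of a type and less RNA per cell cannot be told apart.

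The 5 inducible genes lie at 3 places in the mouse genome (mm10). Psmb9 (ENSMUSG00000096727.3, chr17:34182033-34187353, minus strand) and Psmb8 (ENSMUSG00000024338.15, chr17:34198370-34201450, plus strand) flank the transporter gene Tap1 in the MHC. Psmb10 (ENSMUSG00000031897.9) lies at chr8:105935739-105938444 on the minus strand. Psme1 (ENSMUSG00000022216.17, chr14:55578456-55581528, plus strand) and Psme2 (ENSMUSG00000079197.10, chr14:55587441-55591087, minus strand) lie close together. The constitutive genes are dispersed: Psmb5 (ENSMUSG00000022193.7) lies at chr14:54614119-54618022 on the minus strand and Psmb6 (ENSMUSG00000018286.6) at chr11:70525386-70527649 on the plus strand. Psmb7 (ENSMUSG00000026750.6) lies at chr2:38588036-38644087 on the minus strand, Psme3 (ENSMUSG00000078652.9) at chr11:101316213-101323537 and Psme4 (ENSMUSG00000040850.17) at chr11:30771726-30880361, both on the plus strand. In the RefSeq promoter table the start sites of Psmb9 and Tap1 point away from each other and lie 226 bases apart.

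Promoter windows of 300 bases (250 before to 50 after a start site, RefSeq, GRCm38.p6) were found for 9 of the 10 genes, with a pair of windows for Psme2, and searched on both strands for 3 motifs. The core of the interferon-stimulated response element, GAAA and again GAAA after any 2 bases, bound by interferon regulatory factors, was in Psme1 and in no other member's window (3.44% of all 32851 windows hold it). The gamma-activated sequence TTCNNNGAA was in Psmb8 (8.30% of all windows). TGACNNNGC, the core of the antioxidant-type element bound by the factors encoded by Nfe2l1 and Nfe2l2, was in the constitutive Psmb5, Psmb6 and Psme4 (12.4% of all windows). The constitutive Psmb7 had no window, and the inducible Psmb9, Psmb10 and Psme2 held none of the 3 motifs. The Psme1 match begins at position 10 after the start site. The others begin before it, at -97 (Psmb8), -47 (Psmb5), -9 (Psmb6) and -7 (Psme4). With their flanks, the sites of Psmb8, Psme1 and Psme4 lie wholly in annotated exons of their own gene (GENCODE). All 250 bases before the Psmb8 start site are also annotated as exon. The sites of Psmb5 and Psmb6 lie in no annotated exon. The sites are shown because they divide by class: both interferon-type matches are in inducible genes and all 3 antioxidant-type matches are in constitutive genes. With 1 to 3 matches for each motif, this division is a description only. Each is given 5′ to 3′ on the gene's strand, with the match in capitals; those of Psme1 and Psme4 are matches to the reverse complement.
Psme1, chr14:55578495-55578520, plus strand: agctgtgcTTTCGCTTTCccttcccg
Psmb8, chr17:34198090-34198114, plus strand: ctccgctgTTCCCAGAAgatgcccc
Psmb5, chr14:54618026-54618050, minus strand: tgaagttgTGACGTCGCggcgttgc
Psmb6, chr11:70525340-70525364, plus strand: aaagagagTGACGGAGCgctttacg
Psme4, chr11:30771760-30771784, plus strand: ctgcggctGCAGCGTCAccagaaga
A match is a description of these letters and not evidence of a bound site.

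IFN-γ raised all 5 inducible genes in siLuc cells, by 10.5-fold to 139-fold on the rlog scale, while the constitutive genes moved by at most 0.21 log2 in either direction. The comparison asks how far the cytokine shifts the proteasome of control cells. Among all genes tested, 60.6% were called in this comparison, 28.0% higher and 32.7% lower (4029 and 4708 genes, and 3133 and 6063 under quantile normalization). The median of the 5 inducible genes was 4.48 and that of the 5 constitutive genes was -0.02, the same to 2 decimals as the median of all genes (-0.02).

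Psmb8 had rlog values of 5.27, 5.13 and 5.05 in untreated siLuc cells, while the treated ones gave 12.23, 12.34 and 12.20. It rose by 7.11 (SE 0.07, adjusted p = 3.48e-26), the rank 24 rise among 14407 genes. Psmb9, whose product replaces the β1 subunit, had 5.27, 5.16 and 5.12 without and 12.27, 12.35 and 12.28 with IFN-γ, a difference of 7.12 (SE 0.08, adjusted p = 1.05e-25) and rank 23. The treated libraries of both genes stood far above the untreated ones, as for all 5 inducible genes (62.1% of all genes had groups that did not overlap), and the 2 genes were nearly level with each other in both states. The untreated values of both are low enough to be drawn upward by the rlog transformation. In the authors' deposited table, computed from counts, the rises are 9.33 for Psmb8 and 9.05 for Psmb9.

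Psmb10 started from a higher level, at 8.85, 8.84 and 8.71, and reached 13.25, 13.33 and 13.27 with IFN-γ. It rose by 4.48 (SE 0.05, adjusted p = 3.04e-25), and no treated library overlapped an untreated one. The cap gene Psme1 had 10.35, 10.27 and 10.31 without and 13.70, 13.74 and 13.69 with IFN-γ, a rise of 3.40 (SE 0.04, adjusted p = 3.62e-25). Its partner Psme2 went from 9.53, 9.47 and 9.53 to 13.60, 13.61 and 13.57, a rise of 4.08 (SE 0.04, adjusted p = 3.36e-27). Within each library Psme1 exceeded Psme2 by 0.80 ± 0.02 rlog units without IFN-γ and by 0.12 ± 0.01 with it (SD, n = 3). In siPRMT7 cells the same difference was 0.47 ± 0.09 and 0.35 ± 0.03. In siLuc cells the partners were closer in read count after treatment, without overlap of libraries (62.1% of single genes did not overlap there). In siPRMT7 cells the untreated and treated libraries overlapped. Gene length does not cancel in this gap. Per kb of the table's lengths, Psme2 stood above Psme1 in siLuc cells, at 9.60 against 9.33 untreated and 13.68 against 12.72 treated. With exon union lengths Psme2 was at 8.69 against 9.17 untreated and at 12.77 against 12.57 treated. For the rises of Psmb10, Psme1 and Psme2 in siLuc cells the authors' deposited table gives 4.62, 3.48 and 4.19.

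Of the constitutive genes in siLuc cells, Psmb5 rose, Psmb7 and Psme3 fell, and Psmb6 and Psme4 were not called. Psmb5, the gene replaced by Psmb8, had 10.90, 10.84 and 10.74 without and 10.95, 11.12 and 10.996 with IFN-γ, a rise of 0.20 (SE 0.05, adjusted p = 0.00276). Psmb6 had 11.54, 11.40 and 11.40 without and 11.48, 11.55 and 11.49 with IFN-γ, overlapping values, and lay at 0.06 (SE 0.04, adjusted p = 0.178; 0.11 and called, adjusted p = 0.0126, without the untreated siLuc library of replicate 1). Psmb7 fell by 0.09 (SE 0.04, adjusted p = 0.0422), which 10 alternatives did not call, among them robust eBayes (adjusted p = 0.0504). The authors' deposited table gives -0.05 (adjusted p = 0.435). Leaving out any of the 6 siLuc libraries except the treated one of replicate 2 ended the Psmb7 call, with an adjusted p of up to 0.198 without the treated one of replicate 3. Psme3 went from 12.29, 12.39 and 12.41 to 12.12, 12.18 and 12.16 and fell by 0.21 (SE 0.04, adjusted p = 6.04e-05). Psme4 was at -0.02 (SE 0.05, adjusted p = 0.701).

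**Figure D1:**
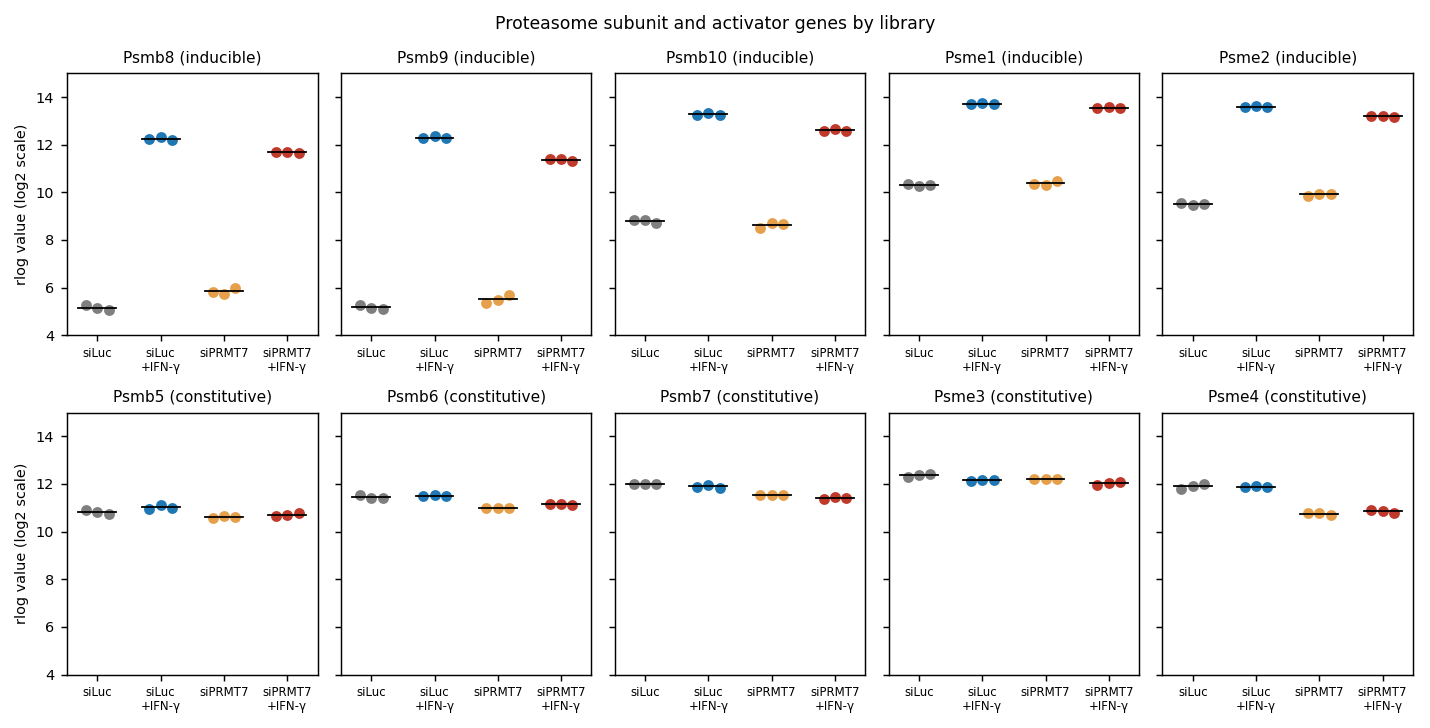
Each panel shows one gene, with rlog values (log2 scale) on the vertical axis and the 4 groups on the horizontal axis; points are the 3 libraries of a group and lines are group means. The 5 inducible genes in the upper row stand between 11.30 and 13.74 in all IFN-γ libraries, above all untreated ones, while the constitutive genes in the lower row stay between 10.56 and 12.41 everywhere.

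IFN-γ also raised all 5 inducible genes in siPRMT7 cells, by 8.99-fold to 58.0-fold on the rlog scale. In this comparison 56.6% of all genes were called, 28.0% higher and 28.6% lower. Psmb8 had 5.82, 5.75 and 6.00 without and 11.69, 11.71 and 11.64 with IFN-γ, a rise of 5.83 (SE 0.07, adjusted p = 1.95e-24). Psmb9 had 5.35, 5.47 and 5.70 without and 11.41, 11.39 and 11.30 with it, a rise of 5.86 (SE 0.08, adjusted p = 4.61e-24). In both genes the groups stood far apart without overlap (65.3% of all genes did not overlap here).

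Psmb10 rose by 3.97 (SE 0.05), Psme1 by 3.17 (SE 0.04) and Psme2 by 3.29 (SE 0.04) in siPRMT7 cells (adjusted p = 4.54e-24, 2.35e-24 and 4.73e-25). Psmb6 rose by 0.15 (SE 0.04, adjusted p = 0.00261), but by 0.07 without a call when quantile normalized (adjusted p = 0.152). Psmb7 fell by 0.11 (SE 0.04, adjusted p = 0.0113; adjusted p = 0.0634 without the treated siPRMT7 library of replicate 1) and Psme3 fell by 0.19 (SE 0.04, adjusted p = 0.000202). Psmb5 was at 0.10 (SE 0.05, adjusted p = 0.104; 0.14 and called, adjusted p = 0.0429, without the treated siPRMT7 library of replicate 1) and Psme4 at 0.09 (SE 0.05, adjusted p = 0.112). The summed leukocyte marker level (log2 of the linear sum) of all 11 genes lay between 8.75 and 8.79 in untreated and between 8.53 and 8.74 in treated siLuc cells. It lay between 8.87 and 9.10 in untreated and between 9.20 and 9.26 in treated siPRMT7 cells. Cd68 was higher under knockdown by 1.20 without and by 1.85 with IFN-γ. Csf1r, the other marker tested, was at 0.08 without IFN-γ, not called, and was higher by 0.35 with it. In untreated siLuc cells the mean of Csf1r was 8.53 and that of Cd68 was 5.26, so the sum rests mostly on Csf1r there. The part of these markers in the results was not tested.

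Within a library, each inducible gene was set against the constitutive gene it is paired with; gene length cancels in a change of that difference. The difference Psmb8 minus Psmb5 went from -5.68 ± 0.04 to 1.23 ± 0.04 (SD, n = 3) with IFN-γ in siLuc cells and from -4.76 ± 0.14 to 0.97 ± 0.11 in siPRMT7 cells. Psmb9 minus Psmb6 went from -6.26 ± 0.02 to 0.79 ± 0.01 and from -5.49 ± 0.18 to 0.22 ± 0.05. Psmb10 minus Psmb7 went from -3.19 ± 0.07 to 1.38 ± 0.03 and from -2.89 ± 0.12 to 1.20 ± 0.05. In all 3 catalytic pairs the sign turned. The inducible gene had fewer reads than its partner in all 6 untreated libraries and more in all 6 treated ones. Gene length does not cancel in the sign itself. Per kb of the table's lengths, treated Psmb9 stayed below Psmb6, at 10.78 against 11.85 in siLuc and 9.84 against 11.50 in siPRMT7 cells. With exon union lengths treated Psmb8 also stayed below Psmb5, at 10.50 against 11.18 in siLuc and 9.92 against 10.87 in siPRMT7 cells.

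Averaged over both siRNAs, IFN-γ changed the pair differences by 6.32 (Psmb8 and Psmb5), 6.38 (Psmb9 and Psmb6), 4.32 (Psmb10 and Psmb7), 3.48 (Psme1 and Psme3) and 3.88 (Psme2 and Psme3). Each had p = 0.005 in a 2-sided exact permutation test within each siRNA, the smallest that its 400 arrangements allow, and adjusted p = 0.01 over the 10 tests of this family. For the siRNA, averaged over both IFN-γ states, the changes lay between 0.06 and 0.33, and the adjusted p-values between 0.183 and 0.615. That average hides opposite directions. Knockdown moved Psmb8 minus Psmb5 by 0.92 without IFN-γ and by -0.27 with it, Psmb9 minus Psmb6 by 0.77 and -0.58, and Psmb10 minus Psmb7 by 0.30 and -0.18. For these 3 pairs the siLuc and siPRMT7 libraries did not overlap in either state. Of single genes, 76.3% did not overlap without and 77.2% with IFN-γ, and no such share was computed for pair differences.

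Per length (rlog value less log2 of the length in kb given in the table), the untreated siLuc cells held most of Psmb7 at 11.80 ± 0.01 and Psmb6 at 11.79 ± 0.08, which did not differ beyond their spread. Psmb5 (10.99 ± 0.08) and Psme3 (10.96 ± 0.07) followed and likewise did not differ. Then came Psme2 (9.60), Psme1 (9.33 ± 0.04) and Psme4 (9.23 ± 0.11), the last pair within its spread, and Psmb10 (8.43), Psmb8 (4.59) and Psmb9 (3.66). With IFN-γ the order in siLuc cells began with Psme2 at 13.68, Psmb10 at 12.91 and Psme1 at 12.72. Psmb6 (11.85 ± 0.04) stood above Psmb7 (11.71 ± 0.06) and Psmb8 (11.70 ± 0.07), which did not differ, and Psmb5 (11.19), Psmb9 (10.78 ± 0.05), Psme3 (10.75 ± 0.03) and Psme4 (9.21) closed it. This order rests on the table's lengths, each of a single transcript model; those of Psmb8, Psmb9 and Psme1 are retained-intron transcripts in GENCODE. The exon union of the gene is 2.99 times as long for Psmb7, 2.38 times for Psmb6, 2.29 times for Psmb8 and 1.87 times for Psme2. With union lengths the untreated order turned, with Psmb5 (10.98) above Psme3 (10.80), Psmb6 (10.54) and Psmb7 (10.22), and in treated siLuc cells Psmb8 (10.50) and Psmb9 (10.43) stood above Psmb7 (10.13).

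Expressed as a share of the linear per-length level of its pair, Psmb8 made up 1.17 ± 0.04% of Psmb8 and Psmb5 in siLuc cells and 58.8 ± 0.64% with IFN-γ (SD, n = 3). In siPRMT7 cells it made up 2.20 ± 0.21% and 54.2 ± 1.9%. Psmb9 made up 0.355 ± 0.0060% and 32.2 ± 0.17% of its pair in siLuc cells, and 0.608 ± 0.076% and 24.1 ± 0.59% in siPRMT7 cells. Psmb10 made up 8.83 ± 0.39% and 69.6 ± 0.49% of its pair in siLuc cells, and 10.7 ± 0.76% and 66.9 ± 0.80% in siPRMT7 cells. In every pair the treated libraries of siPRMT7 had smaller shares than those of siLuc, with no overlap (77.2% of single genes did not overlap there). These are shares of RNA as rlog values give it; the untreated shares of Psmb8 and Psmb9 are too high by an unknown amount for the reason given above, and with exon union lengths the treated Psmb8 share in siLuc cells was 38.5%.

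**Figure D2:**
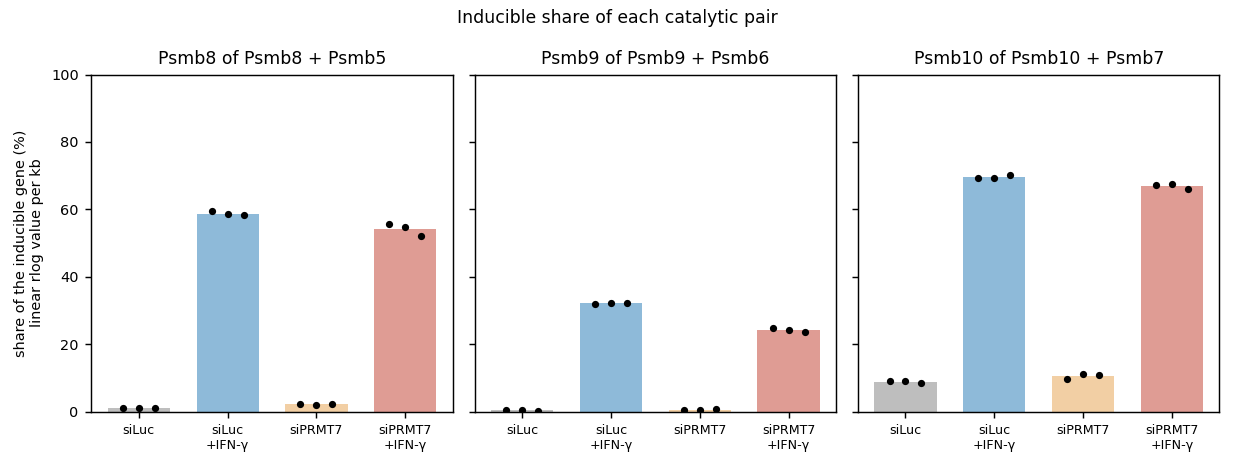
Bars are group means and points the 3 libraries of a group; the vertical axis is the share (%) of the inducible gene in the linear rlog level per kb of each catalytic pair. With IFN-γ the shares were 58.8%, 32.2% and 69.6% in siLuc cells and 54.2%, 24.1% and 66.9% in siPRMT7 cells, against at most 10.7% in untreated groups.

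Knockdown without IFN-γ raised Psmb8, Psmb9 and Psme2, lowered Psmb10 and lowered all 5 constitutive genes, though the fall of Psme3 turned to 0.01 (adjusted p = 0.786) under quantile normalization. This addresses the effect of Prmt7 loss in cells never given the cytokine. Calls were common: 75.2% of all genes, 36.3% higher and 38.9% lower, so the share of members called (9 of 10) is close to the background.

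Psmb8 was higher by 0.70 (SE 0.07, adjusted p = 1.55e-08), with all siPRMT7 libraries above all siLuc ones in the values given above (76.3% of all genes had groups that did not overlap). Psmb9 was higher by 0.33 (SE 0.08, adjusted p = 0.000636). The untreated siPRMT7 library of replicate 3 had the highest value of its group for both genes, and without it the differences were 0.63 and 0.23 (adjusted p = 1.15e-07 and 0.00629). Psmb9 was not called when quantile normalized (0.12, adjusted p = 0.163). The authors' deposited table gives larger changes, 2.25 for Psmb8 (adjusted p = 1.5e-06) and 1.34 for Psmb9 (adjusted p = 0.00951).

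Psme2 had 9.86, 9.94 and 9.93 in siPRMT7 cells against 9.53, 9.47 and 9.53 in siLuc cells, a rise of 0.40 (SE 0.04, adjusted p = 1.79e-09). Psme1 was at 0.06 (SE 0.04, adjusted p = 0.144) and was called under quantile normalization (0.15, adjusted p = 0.00191), median centring (0.10, adjusted p = 0.0213) and without the untreated siPRMT7 library of replicate 2 (adjusted p = 0.0411). Psmb10 fell by 0.16 (SE 0.05, adjusted p = 0.00756), with overlapping groups. That call was lost without the untreated siPRMT7 library of replicate 1 (-0.10, adjusted p = 0.0835) and in a fit of the compared groups alone (adjusted p = 0.0536), and the authors' deposited table does not make it (-0.17, adjusted p = 0.174).

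On the rlog scale Psme4 had the largest change of any member under knockdown; in the authors' deposited table Psmb8 (2.25) and Psmb9 (1.34) exceed its -1.18. It stood at 11.79, 11.93 and 12.01 in siLuc cells and 10.80, 10.80 and 10.68 in siPRMT7 cells. It was 2.22-fold lower (log2 -1.15, SE 0.05, adjusted p = 1.23e-14), rank 316 among the falls of 14407 genes. Psmb7 fell by 0.47 (SE 0.04, adjusted p = 2.17e-10), from 12.01, 11.99 and 11.98 to 11.53, 11.52 and 11.52. Psmb6, at 10.99, 11.01 and 10.995 in siPRMT7 cells, fell by 0.45 (SE 0.04, adjusted p = 1.9e-09) and Psmb5 by 0.21 (SE 0.05, adjusted p = 0.00088). Psme3 was at -0.15 (SE 0.04, adjusted p = 0.00133).

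With IFN-γ in both groups, all 10 genes were lower in siPRMT7 than in siLuc cells, though the calls of Psme1 and Psme3 were lost under quantile normalization (-0.07, adjusted p = 0.119, and -0.03, adjusted p = 0.382) and under median centring (-0.08, adjusted p = 0.0688, and -0.05, adjusted p = 0.294). In this comparison 74.7% of all genes were called, 35.9% higher and 38.7% lower. The median was -0.58 over the inducible genes, -0.36 over the constitutive genes and -0.01 over all genes.

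Psmb9 fell most among the inducible genes, by 0.93 (SE 0.08, adjusted p = 4.41e-10), and was 1.91-fold lower. Psmb10 fell by 0.67 (SE 0.05, adjusted p = 1.55e-10), Psmb8 by 0.58 (SE 0.07, adjusted p = 3.05e-07) and Psme2 by 0.40 (SE 0.04, adjusted p = 1.96e-09). Psme1 fell by 0.16 (SE 0.04, adjusted p = 0.000807). In all 5 the treated libraries of the 2 siRNAs did not overlap, as for 77.2% of all genes. At these high levels the rlog values and the counts lie close: the authors' deposited table gives -0.95 for Psmb9, -0.68 for Psmb10, -0.59 for Psmb8, -0.40 for Psme2 and -0.17 for Psme1.

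Among constitutive genes, Psme4 fell by 1.03 (SE 0.05, adjusted p = 6.92e-14), from 11.87, 11.92 and 11.87 to 10.92, 10.85 and 10.80. Psmb7 fell by 0.49 (SE 0.04, adjusted p = 9.16e-11), Psmb6 by 0.36 (SE 0.04, adjusted p = 6.03e-08) and Psmb5 by 0.31 (SE 0.05, adjusted p = 1.77e-05). Psme3 was at -0.13 (SE 0.04, adjusted p = 0.00436). The falls of Psmb5, Psmb6, Psmb7 and Psme4 were called in both IFN-γ states under every alternative run.

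**Figure D3:**
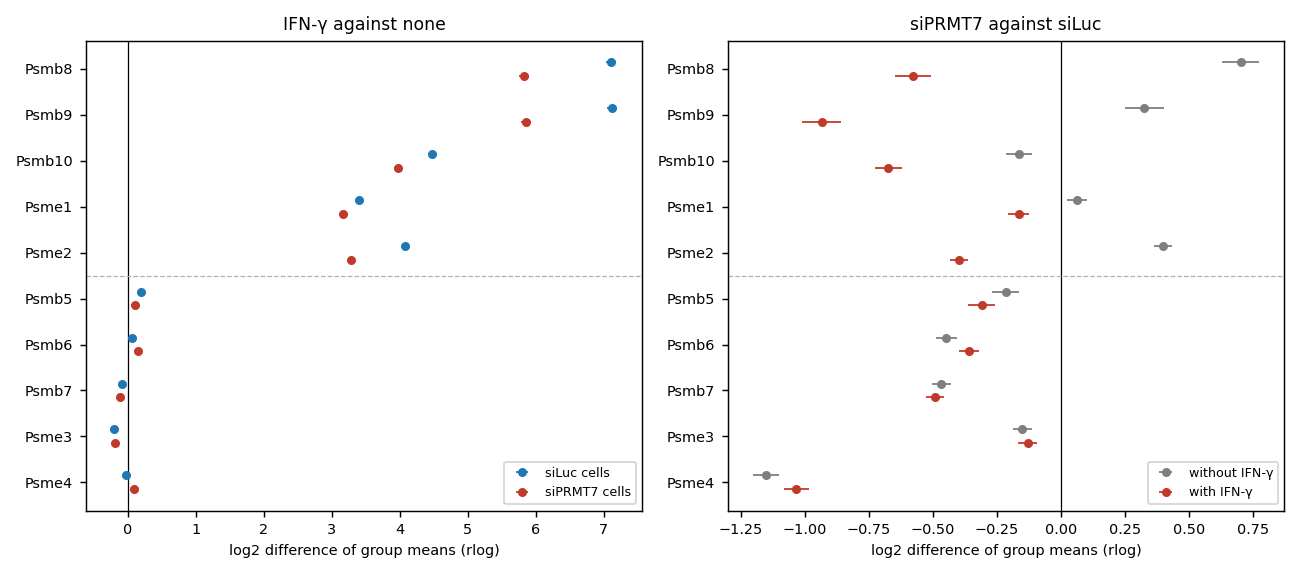
Each point is the log2 difference between 2 groups for one of the 10 genes, with a bar of 1 SE to either side, IFN-γ against none on the left and siPRMT7 against siLuc on the right. IFN-γ differences of inducible genes lie between 3.17 and 7.12 and those of constitutive genes between -0.21 and 0.20; under knockdown Psmb8, Psmb9 and Psme2 lie above 0 without and below 0 with IFN-γ, and Psme4 is near -1.15 and -1.03 in both states.

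The response to IFN-γ was smaller in siPRMT7 than in siLuc cells for all 5 inducible genes, by the test of the difference itself (limma interaction). Of all genes, 30.6% were called in this test, 14.1% with a larger and 16.5% with a smaller response (2034 and 2381 genes, and 2852 and 1993 under median centring). The interaction was -1.28 for Psmb8 (SE 0.10, adjusted p = 2.47e-09), -1.26 for Psmb9 (SE 0.11, adjusted p = 8.26e-09) and -0.80 for Psme2 (SE 0.05, adjusted p = 6.36e-11). It was -0.51 for Psmb10 (SE 0.07, adjusted p = 1.25e-05) and -0.23 for Psme1 (SE 0.06, adjusted p = 0.00339). By construction each value is the knockdown difference with IFN-γ less that without. For Psmb8 it joins -0.58 and 0.70, so a higher untreated level and a lower treated level both enter, while for Psmb10 it joins -0.67 and -0.16. From the authors' deposited table the same differences of fold changes, with no test, are -2.88 for Psmb8, -2.32 for Psmb9, -0.85 for Psme2, -0.54 for Psmb10 and -0.27 for Psme1.

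In limma's test none of the 5 constitutive genes was called for the interaction (0 also at an unadjusted p under 0.05), with values between -0.09 and 0.12. Without the untreated siLuc library of replicate 1, Psme4 was called (0.18, adjusted p = 0.0281). The 4 comparisons of a pair of groups share libraries with each other and with the interaction, so their values are given side by side and are not independent.

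The 11 common subunits of the 20S barrel (Psma1 to Psma7 and Psmb1 to Psmb4) moved with IFN-γ far less than the inducible genes. In siLuc cells 10 rose and Psma6 was not called (-0.04, list median 0.39), and in siPRMT7 cells again 10 rose and Psma6 was not called (0.08, list median 0.28). Psma5 rose most, by 1.02 (SE 0.04) and 0.97 (SE 0.04). In siLuc cells Psma2 rose by 0.67, Psmb2 by 0.65 and Psma3 by 0.46. Of all genes, 28.0% were called higher in each kind of cell. Under knockdown 10 of 11 fell without IFN-γ (median -0.46, Psma2 not called) and all 11 with it (median -0.54), against 38.9% and 38.7% of all genes called lower. Psma7 fell by 0.73 in both states, Psma6 by 0.66 without IFN-γ, and with IFN-γ Psma3 fell by 0.72, Psmb2 by 0.66 and Psma5 by 0.59. The interaction was called for Psmb2 (-0.37), Psma3 (-0.21), Psma2 (-0.16) and Psma1 (0.26). Of all genes, 30.6% were called in that test, 16.5% with a smaller and 14.1% with a larger response. The knockdown medians can be set beside those of the constitutive members (-0.45 and -0.36) and of all genes (-0.01 in both states).

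Of 8 assembly chaperones tested, 2 rose and 1 fell with IFN-γ in siLuc cells, against 28.0% and 32.7% of all genes. In siPRMT7 cells 3 rose and 2 fell, against 28.0% and 28.6% of all genes. Pomp, which matures the nascent barrel, rose by 0.61 with IFN-γ in siLuc and by 0.43 in siPRMT7 cells, and Psmg4, an early chaperone of the alpha ring, rose by 0.73 and 0.49. Psmg3 fell by 0.22 and 0.21, and Psmg2 was at -0.06 in both. Under knockdown 6 of 8 fell in each IFN-γ state (38.9% and 38.7% of all genes). Psmg1 fell by 1.04 without and by 1.16 with IFN-γ, the largest change of the list. Pomp fell by 0.32 and 0.51. The chaperones of the regulatory particle Psmd10, Psmd5 and Psmd9 were at -0.62, -0.32 and -0.15 without IFN-γ and at -0.42, -0.20 and -0.02 with it, and Psmd9 with IFN-γ was not called (adjusted p = 0.715).

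Among 6 other partners of the barrel, Psmf1 was the one called higher under knockdown, while 5 were called lower without and 3 with IFN-γ (38.9% and 38.7% of all genes). It encodes PI31, named as a proteasome inhibitor from test-tube assays, and had 10.23, 10.19 and 10.27 in siLuc and 11.21, 11.25 and 11.25 in siPRMT7 cells. It rose by 1.01 (SE 0.04) under knockdown without and by 0.77 with IFN-γ, and IFN-γ raised it by 0.64 in siLuc cells. The ubiquitin receptor gene Adrm1 was at -0.41 and -0.47 under knockdown, and the deubiquitinase genes Uchl5 and Usp14 at -0.29 and -0.38 and at -0.27 and -0.19, all called. Ecpas, a proteasome scaffold gene, rose by 0.31 and 0.49 with IFN-γ and was at -0.12 and 0.06 under knockdown (adjusted p = 0.00903 and 0.19). Akirin2, for nuclear import of proteasomes, was at -0.15 and 0.01 under knockdown (adjusted p = 0.00297 and 0.906).

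Downstream of the proteasome, peptides are carried by TAP and trimmed in the endoplasmic reticulum. Of 8 such genes, 7 rose with IFN-γ in each kind of cell, and 5 had a smaller response in siPRMT7 cells by the interaction test. Over all genes these shares were 28.0% in each kind of cell and 16.5%. Tap1, head to head with Psmb9, had 8.53, 8.59 and 8.33 in siLuc and 9.501, 9.55 and 9.51 in siPRMT7 cells without IFN-γ. It rose by 1.04 (SE 0.05) under knockdown without IFN-γ and fell by 0.37 (SE 0.05) with it, the same signs as Psmb9. IFN-γ raised Tap1 by 5.16 in siLuc and 3.76 in siPRMT7 cells, Tap2 by 5.90 and 4.70, Tapbp by 4.33 and 2.696 and Erap1, the trimming enzyme, by 3.79 and 2.77. Tapbpl rose by 4.48 and 4.41, with an interaction of -0.08 (adjusted p = 0.461). The cytosolic aminopeptidase gene Lap3 rose by 1.90 and 1.42 and fell under knockdown by 0.66 and 1.14. Tpp2 fell by 0.68 and 0.75 under knockdown, and Blmh by 0.15 and 0.25. Without IFN-γ, means in siPRMT7 cells also stood above those in siLuc cells for Tapbp (11.91 against 10.05), Tap2 (8.60 against 7.29) and Erap1 (9.76 against 8.82). By construction these untreated levels enter the interactions of the 3 genes. In that comparison 4 of the 8 genes were called higher and 3 lower (36.3% and 38.9% of all genes). With IFN-γ present, Tapbp was higher in siPRMT7 cells (0.23). Tap2 (0.11), Erap1 (-0.07) and Tapbpl (-0.10) were not called there (adjusted p = 0.0746, 0.138 and 0.0855).

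**Figure D4:**
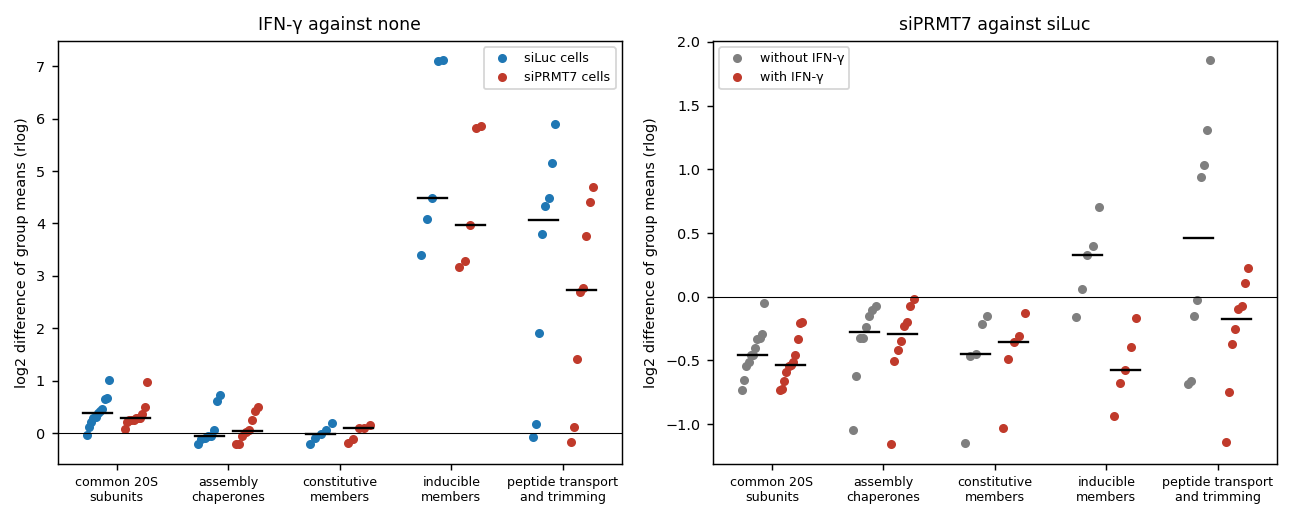
Points are genes, placed by list, with their log2 difference of group means on the vertical axis; lines are list medians. The common 20S subunits have medians of 0.39 and 0.28 with IFN-γ and -0.46 and -0.54 under knockdown, the inducible members 4.48 and 3.97 and then 0.33 and -0.58, and the 5 constitutive members (Psme3 turned to 0.01 without IFN-γ under quantile normalization) -0.45 and -0.36.

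Among genes that control transcription of these loci, Irf1 rose with IFN-γ by 5.41 in siLuc and 4.81 in siPRMT7 cells, Nlrc5 by 7.21 and 5.95 and Irf8 by 5.89 and 4.86. Under knockdown, Nlrc5 rose by 1.53, Irf2 by 0.25 and Irf1 by 0.23 without IFN-γ. With IFN-γ, Irf8 fell by 1.19, Irf1 by 0.37 and Irf2 by 0.18, while Nlrc5 was higher by 0.26. Irf1 stood at 14.24, 14.21 and 14.23 in treated siLuc and 13.85, 13.91 and 13.83 in treated siPRMT7 cells, without overlap (77.2% of all genes). Nfe2l1, whose product drives constitutive proteasome genes when proteasome activity falls, rose by 0.74 (SE 0.04) without and by 0.61 with IFN-γ. Ddi2, for the protease that activates the Nfe2l1 product, rose by 0.47 and 0.34. Nfe2l2 was at -0.05 (adjusted p = 0.326) and fell by 0.19 with IFN-γ.

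The genes whose rlog values over the 12 libraries followed the mean of the 5 inducible members most closely were C4b, Ifi211, Clec2d, Irf1, Mir6381, Gbp5, Sp110 and Herc6 (Pearson r of 0.9999 for C4b and between 0.9987 and 0.9994 for the others). C4b, the complement gene, whose near-identical copy C4a makes its row uncertain, rose by 7.16 in siLuc and 6.17 in siPRMT7 cells. Those closest to the mean of Psmb5, Psmb6 and Psmb7 were Bdh2, Mrpl17, Phb, Drg1 and Hypk (r between 0.986 and 0.994). All of these r values rest mainly on steps between groups and are given as description.

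Some members share reads with other loci. Of the windows of 75 bases in the counted model of Psme2, 51.7% also occur in the retrogene Psme2b, which had 5.16, 5.18 and 4.69 without and 8.72, 8.60 and 8.68 with IFN-γ in siLuc cells. Psme2b rose by 3.66 there, so both rows are uncertain, Psme2b more so at its lower level. For Psmb5, 35.8% of windows also occur in Gm3375, and Mir686 lies within its exons on the same strand. Gm3375 lay between 1.94 and 2.34 in all libraries, below the filter on low values. Psmb7 shares 34.9% of its exon bases with Nek6 on the opposite strand. Nek6 was at -0.56 and -0.50 with IFN-γ and at -0.78 and -0.71 under knockdown. Psmb8 shares 7.88% with the antisense Gm20496, which rose by 4.99 in siLuc cells. No source used here says whether reads were counted by strand, and the part of these overlaps in the values of Psmb7 and Psmb8 was not tested. Psme1 shares 0.352% of its exon bases with Emc9 on the opposite strand and 0.366% of its windows with Gm7776. For Psmb9, Psmb10, Psmb6, Psme3 and Psme4 neither check found a shared base or window. The thymus-specific Psmb11 lay between 2.48 and 3.83 and the testis-specific Psma8 near -2.2, below the filter. Psmb11 means without and with IFN-γ were 2.56 and 3.52 in siLuc cells and 2.54 and 2.90 in siPRMT7 cells, and were not tested.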

How the data were processed

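The table deposited by the authors holds log2-scale rlog values of 12 libraries, per the file headers, and beside them the authors' own log2 fold changes and adjusted p-values. The submitters' processing notes name DESeq2 1.26.0, HOMER 4.11.1, STAR 2.7.1a and Trimmomatic 0.39, with mm10 (GRCm38) as the genome. The counting settings and the method of p-value adjustment are not given in the sources used here.

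Symbols on several rows (115) were reduced to the row with the highest mean, and the 14407 genes whose mean over all libraries reached an rlog of 4 were tested. Group means of all 12 libraries were fitted with limma 3.58.1 in R 4.3.3, using eBayes with a trend, 2-sided p-values and Benjamini-Hochberg adjustment. The fit, checked on simulated data, had 8 residual degrees of freedom. Pair differences were tested by exact permutation within strata (Python 3.11.15). Fold values are on the rlog scale, which understates changes of weakly expressed genes. Overlaps and read-length windows came from GENCODE M21 on GRCm38. Alternatives were quantile normalization, median centring, filters on low values, variance settings, a replicate block and leaving out each library. The members, lists and tests were chosen with earlier results of these data known. All 10 members were named. Of the lists of proteasome genes, peptide transport and trimming genes and transcription genes, all members were named where at most 8 were measured, and otherwise those with the smallest p and the largest changes. A gene of the transcription list is not reported here, and so no counts are given over that list. The 8 and 5 genes with the most similar pattern, at a mean rlog of at least 6 and without predicted genes, were named too.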

Additional observations from a re-analysis of the deposited data

Results flagged for a closer look

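The IFN-γ response of all 5 inducible genes differed between siLuc and siPRMT7 cells by the interaction test, with log2 differences of -1.28 for Psmb8, -1.26 for Psmb9, -0.80 for Psme2, -0.51 for Psmb10 and -0.23 for Psme1 (limma, adjusted p between 6.36e-11 and 0.00339). All 5 kept their sign and their call under every alternative run on the interaction. The values of Psmb8 and Psmb9 rest on untreated levels that the rlog transformation draws upward.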

How the results depend on the processing

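Over the alternatives, 38 of 50 member differences kept their side of the threshold throughout. Under quantile normalization Psme3 reversed under knockdown without IFN-γ (0.011). The count of constitutive genes called for the interaction ran from 0 to 1 when single libraries were left out. The shares depended on gene length. With exon union lengths they were, in siLuc, treated siLuc, siPRMT7 and treated siPRMT7 cells in turn, 0.517%, 38.5%, 0.975% and 34.2% for Psmb8, 0.663%, 47.0%, 1.13% and 37.3% for Psmb9, and 18.03%, 83.9%, 21.4% and 82.1% for Psmb10. Under quantile normalization (chosen for the shares after seeing the data) the siLuc shares were 1.32% and 58.0% for Psmb8 and 0.400% and 31.8% for Psmb9. Not every same-numbered pair reached a correlation of deviations of 0.1, the criterion for pairing: 5 of 18 did (median 0.06), against 3 of 36 pairs with different numbers (median -0.02). With the replicate block, 8855 genes were called for IFN-γ in siLuc cells against 8737, and all 50 member differences kept their side of the threshold. Comparison with the authors' deposited fold changes and levels per exon union length were added after seeing the data. Low read numbers limit the untreated levels of Psmb8 and Psmb9.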
